A study of Homo sapiens with 6 samples.

Results

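A group of 6 transcripts recovered with the long non-coding RNA CyCoNP at an intermediate level was followed through every library of a pull-down experiment. They are SAMD4B, GATAD2B, RALY, RBMS2, ARHGAP31 and ALDH2, and they were picked by name for their recovery in the CyCoNP pull-down against input, so that recovery is described here without a test. All 6 were found by Ensembl identifier among the 60676 genes of the deposited table, and all 6 passed the filter, a sum of 10 or more counts over the libraries, that left 12565 genes to test. The cells were SK-N-BE, a human neuroblastoma line, differentiated for 1.5 days in 10 μM retinoic acid, and this treatment was common to all groups. Extract from these cells was sequenced as such (input, 2 libraries), after retrieval with biotinylated DNA probes against CyCoNP (CyCoNP PD, 2 libraries), or after retrieval with control probes directed at bacterial LacZ (LacZ PD, 2 libraries). The cells are one established line, and nothing in the extract was crosslinked for this assay.

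The candidates act at different points of gene regulation and metabolism. SAMD4B is a mammalian Smaug protein, which binds hairpins in mRNAs and recruits deadenylation and translational repression. RALY and RBMS2 are RNA-binding proteins, the former a relative of hnRNP C and the latter a protein that binds AU-rich 3′ UTRs. GATAD2B is a subunit of the chromatin-remodelling and histone deacetylase complex NuRD. ARHGAP31, also called CdGAP, switches off the small GTPases Rac1 and Cdc42, which shape the actin of growing neurites. ALDH2 is the mitochondrial enzyme that oxidizes acetaldehyde to acetate.

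Library depth set what could be seen. Input 1 and 2 summed to 717905 and 791970 counts. CyCoNP PD 1 and 2 summed to 1512148 and 514882, and LacZ PD 1 and 2 to only 18870 and 140115. A transcript had to take a share of 159 CPM (its counts scaled to a common library total) in LacZ PD 1 or 21.4 CPM in LacZ PD 2 to reach 3 counts, the limit that a count of 0 allows. The sympathoadrenal markers HAND2, TH and DBH were detected in both input libraries, with 124 and 74, 89 and 110, and 146 and 158 reads. CyCoNP itself, the targeted RNA, was read 20 and 39 times from input, 11687 and 3507 times after its own pull-down, and 1 and 20 times after the LacZ pull-down.

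The retrieval rests on pairing between probes and RNA, so the probes with the longest complementary run in each candidate are shown first. The probes against CyCoNP numbered 22, each of 20 bases, and all 22 were fully complementary to an annotated CyCoNP transcript. Each candidate's MANE Select transcript, the reference isoform in GENCODE v44, was searched for the longest run exactly complementary to any of these probes. Below, the complementary bases of 1 such probe per candidate are in capitals, 5′ to 3′.
Probe 1 for SAMD4B: tggcgaaaAGGGAGGGTGAA
Probe 15 for GATAD2B: tggaagGTGCAGTTCATGac
Probe 13 for RALY: aggCATGGGGAAGGAttagg
Probe 1 for RBMS2: tggcgaaAAGGGAGGGTGAa
Probe 7 for ARHGAP31: taatcaGGGGTGTTCTGCtc
Probe 12 for ALDH2: cccaacatgGGGGAGAAAAA

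The longest run was 12 bases in SAMD4B, GATAD2B, RALY, RBMS2 and ARHGAP31 and 11 bases in ALDH2. Among the 10355 tested genes with a MANE Select transcript the median was 10 bases, 7.0% reached 12 bases and 24.7% reached 11. The candidates have long transcripts, of 4680 to 9561 bases with a median of 7982, against a median of 3370 bases over the tested transcripts. Among the 2751 tested transcripts in that length range, 10.7% held a run of at least 12 bases and 36.5% a run of at least 11. On GRCh38 the complementary stretches lie in the 3′ UTR at chr19:39385537-39385548 for SAMD4B, chr1:153808436-153808447 for GATAD2B and chr20:34080091-34080102 for RALY. Those of RBMS2 and ALDH2 lie there too, at chr12:56594074-56594085 and chr12:111811807-111811817. That of ARHGAP31 lies in the coding sequence, at chr3:119402278-119402289. The runs shown for SAMD4B and RBMS2 are complementary to overlapping stretches of the same probe. SAMD4B and ARHGAP31 each held 2 matches of the longest length, of which 1 is shown. The runs are a description of sequence, and their part in the recovery was not tested. GC content gave the candidates no common mark, running from 47.0% in RBMS2 to 59.1% in SAMD4B around a median of 48.9%, against 47.6% for the tested transcripts.

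The study also examines CyCoNP together with miR-4492. A microRNA pairs with its targets mainly through its seed, bases 2 to 8. The mature sequence, from RefSeq on GRCh38.p14 at chr11:118910765-118910781 on the plus strand, is given with its seed in capitals, followed by the first seed match after the stop codon in each candidate that holds one (transcript strand only, match in capitals, letters CCAGCCC).
hsa-miR-4492: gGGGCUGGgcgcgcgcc
SAMD4B, chr19:39384327-39384333: acccattttcctCCAGCCCtggctacccgg
GATAD2B, chr1:153809269-153809275: attccaggccaaCCAGCCCaaaattatttc
RALY, chr20:34081787-34081793: ggcctgactaggCCAGCCCcaaggtggcca
RBMS2, chr12:56591552-56591558: gtttttgagtctCCAGCCCtcagtcaagga
ALDH2, chr12:111811785-111811791: caactgtagggaCCAGCCCcacagggtcgg

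SAMD4B and RALY each held 3 seed matches in the 3′ UTR, ALDH2 held 2, GATAD2B and RBMS2 held 1 each, and these letters did not occur in the 3′ UTR of ARHGAP31. Of the 10354 tested genes with a MANE Select 3′ UTR, 22.9% held at least 1 match. The 3′ UTRs of the candidates span 2173 to 7957 bases, and among the 3335 tested 3′ UTRs in that range the share was 32.8%. A match of 7 letters is no evidence that the microRNA binds there.

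All 6 transcripts took a larger share of both CyCoNP PD libraries than of any of the other 4 libraries. That order was found in 6.55% of the genes tested, and the weaker one, both CyCoNP PD libraries above both input libraries, in 15.9%. For RBMS2, ARHGAP31, RALY and ALDH2 the place of LacZ PD 1 in the order is not settled. For RBMS2 and ARHGAP31 it rests on a count of 0, whose limit of 159 CPM is above their CyCoNP PD shares. RALY and ALDH2 had only 1 and 2 counts in LacZ PD 1. The ratios of their pooled CyCoNP PD shares to LacZ PD 1 had exact conditional binomial intervals of 0.588 to 131 and 0.717 to 21.5. Both intervals include 1. Nothing is read from the candidates' count, since they were chosen on this contrast. Their log2 fold changes in CyCoNP PD against input, from the edgeR fit after TMM normalization, ran from 2.16 to 3.98 with a median of 3.30, and the median over all genes tested was -0.01. By log2 fold change they ranked 170 (SAMD4B), 180 (RBMS2), 212 (ARHGAP31), 251 (ALDH2), 464 (GATAD2B) and 540 (RALY) among 12565 genes. Calls required an edgeR adjusted p under 0.05 together with a log2 fold change beyond 1 in size. By that rule 0.119% of the genes were enriched in CyCoNP PD and 0.00796% depleted. With the replicate number as a block these shares were 1.53% and 0.732%, and with DESeq2 0.462% and 0.111%. Without LacZ PD 1 or without LacZ PD 2, 0 genes were called with edgeR, although 370 and 379 were higher before adjustment at p under 0.05.

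**Figure D1:**
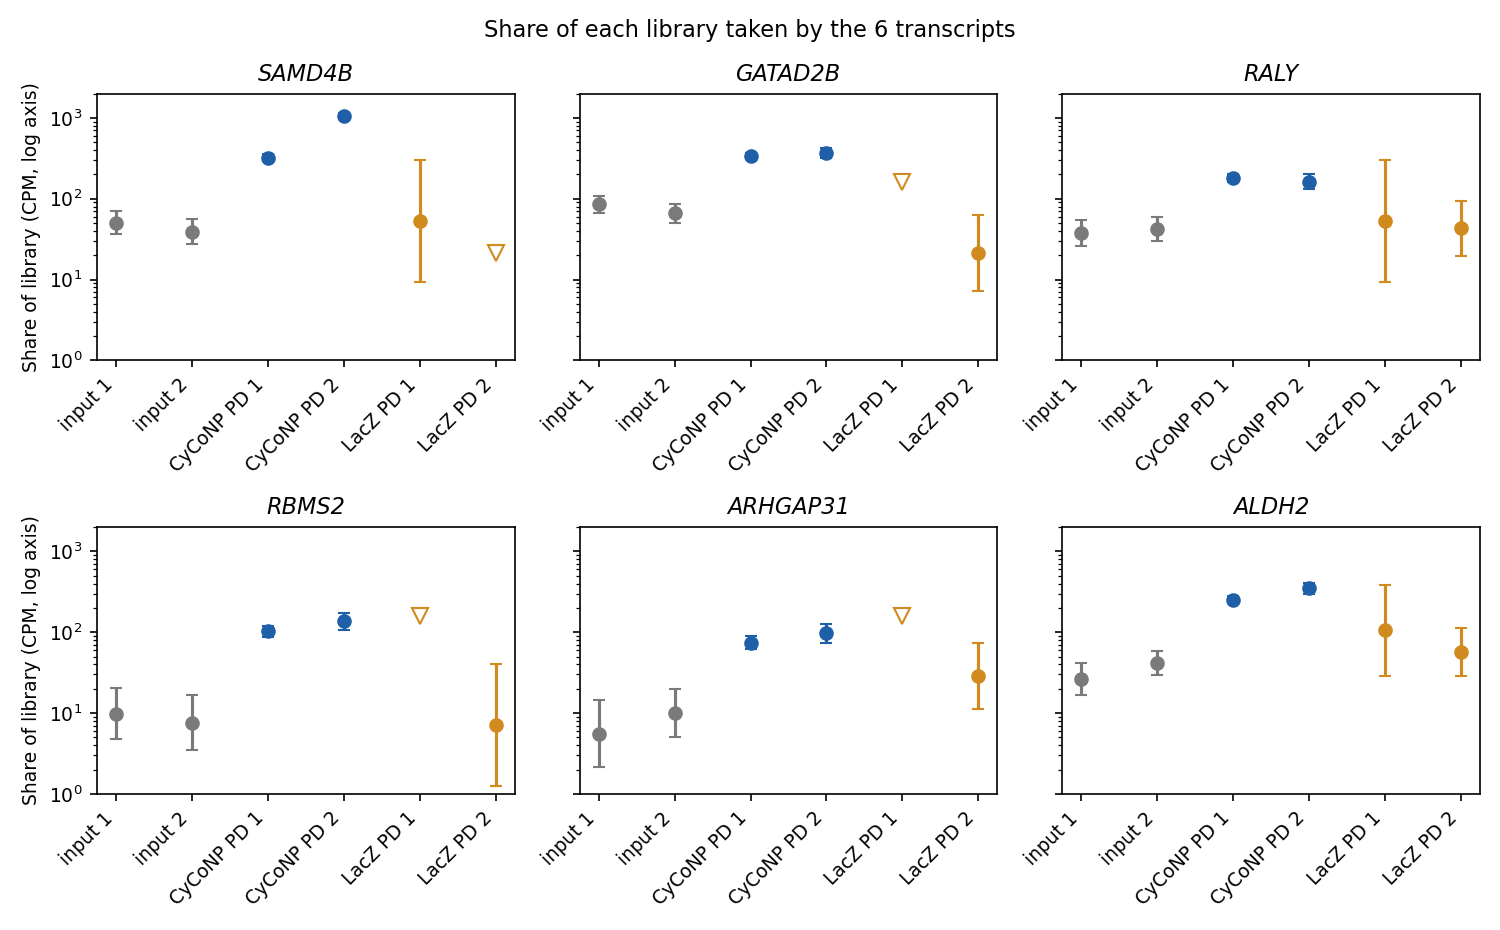
Share of each library (CPM, log axis) for the 6 transcripts; points are single libraries, bars are 95% Wilson intervals, and open triangles mark the limit of 3 counts where a library had 0. In every panel both CyCoNP PD libraries lie above both input libraries, and the CyCoNP PD replicates lie farthest apart for SAMD4B.

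SAMD4B (ENSG00000179134) is encoded on the plus strand of chromosome 19 (39342421 to 39385710, GRCh38), with 14 exons in its MANE Select transcript. Input gave 36 and 31 reads of it, the CyCoNP pull-downs gave 488 and 537, and the LacZ pull-downs 1 and 0. As shares these were 50.1 and 39.1 CPM of input, 323 and 1043 CPM of the CyCoNP pull-downs, and 53.0 and 0 CPM of the LacZ pull-downs. The input libraries were alike and the 2 pull-down libraries were not. The share of CyCoNP PD 2 was 3.23 times that of CyCoNP PD 1 (95% exact conditional binomial interval 2.85 to 3.66), outside counting error. TMM-normalized means were 794 ± 570 CPM with CyCoNP probes and 50 ± 4.18 CPM for input (SD, n = 2 each). This is a log2 fold change of 3.98 (standard error 0.83), the largest of the 6, and the replicate SD in CyCoNP PD was 1.13 on the log2 scale. It fell to 2.96 without CyCoNP PD 2 and rose to 4.60 without CyCoNP PD 1. Both libraries were above input, by 7.27-fold in replicate 1 (interval 5.62 to 9.53) and 23.5-fold in replicate 2 (interval 18.2 to 30.8). Its exons overlap those of PAF1, on the other strand, by 82 bases. PAF1 was counted 15 and 13 times in input and 56 and 12 times after the CyCoNP pull-down.

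GATAD2B (ENSG00000143614) is encoded on the minus strand of chromosome 1 (153789030 to 153923360). It was counted 61 and 52 times in input, 515 and 191 times with CyCoNP probes, and 0 and 3 times with LacZ probes. Its shares of input were 85.0 and 65.7 CPM, against 341 and 371 CPM with CyCoNP probes and 0 and 21.4 CPM with LacZ probes. The replicates of each deep group were close, and CyCoNP PD did not overlap input. The CyCoNP pull-downs averaged 419 ± 9.20 CPM after TMM scaling, the tightest pair of the 6, and input 84.3 ± 7.65 CPM (SD, n = 2 each). Its log2 fold change was 2.31 (standard error 0.64), and leaving out each library in turn kept it between 2.22 and 2.40. Among the candidates GATAD2B had the most input reads and one of the smallest gains, 4.65-fold over input in pooled share (interval 3.81 to 5.73). This interval covers counting error and leaves out the spread between replicates.

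RALY (ENSG00000125970) is encoded on the plus strand of chromosome 20 (33993646 to 34108308). Reads of it numbered 27 and 33 in input, 271 and 83 with CyCoNP probes, and 1 and 6 with LacZ probes. The shares were 37.6 and 41.7 CPM in input, 179 and 161 CPM with CyCoNP probes, and 53.0 and 42.8 CPM with LacZ probes. Both LacZ PD shares were slightly above both input shares, and both CyCoNP PD shares were above all of these. The share in LacZ PD 1 rests on 1 read, so its place is not settled. On the TMM scale it averaged 44.9 ± 7.32 CPM before and 201.0 ± 22.7 CPM after retrieval (SD, n = 2 each). The log2 fold change of RALY in CyCoNP PD against input, 2.16 (standard error 0.62), was the smallest of the 6. It stayed between 2.0 and 2.33 when single libraries were left out. The antisense gene RALY-AS1, which shares no exonic bases with RALY in GENCODE v44, was counted at most 6 times in a library.

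RBMS2 (ENSG00000076067) is encoded on the plus strand of chromosome 12 (56521820 to 56596193). Only 7 and 6 counts were found in input, against 156 and 70 with CyCoNP probes and 0 and 1 with LacZ probes. These are 9.75 and 7.58 CPM in input, 103 and 136 CPM with CyCoNP probes, and 0 and 7.14 CPM with LacZ probes. TMM-scaled means were 9.70 ± 0.843 CPM before and 140 ± 21.9 CPM after retrieval (SD, n = 2 each), with no overlap. The change was 3.82 on the log2 scale (standard error 0.71) and stayed between 3.65 and 3.99 when single libraries were left out. With so few input reads, the pooled ratio of 12.9-fold carries a wide interval of 7.42 to 24.7.

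The counts of RBMS2 are uncertain, because a processed pseudogene shares its sequence. RBMS2P1 (ENSG00000213250), on chromosome 12 from 94423744 to 94424969, is 1226 bases long and shares an identical stretch of 308 bases with RBMS2. It was looked at after its values were seen. Its reads numbered 2 and 0 in input, 278 and 5 with CyCoNP probes, and 1 and 1 with LacZ probes. CyCoNP PD 1 thus held more reads assigned to the pseudogene than to RBMS2, and CyCoNP PD 2 held almost none. Summed, the pair took 287 and 146 CPM of CyCoNP PD and 12.5 and 7.58 CPM of input. On the log2 scale the sum changed by 4.50 (standard error 0.75), against 3.82 for RBMS2 alone, while its replicate SD in CyCoNP PD was 0.74 against 0.22. RBMS2 also overlaps BAZ2A on the other strand by 598 exonic bases. BAZ2A was read 42 and 30 times in input and 69 and 20 times with CyCoNP probes.

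ARHGAP31 (ENSG00000031081) is encoded on the plus strand of chromosome 3 (119294383 to 119420714). It was the least detected of the candidates in input, with 4 and 8 counts, and reached 112 and 50 with CyCoNP probes and 0 and 4 with LacZ probes. The shares were 5.57 and 10.1 CPM in input, 74.1 and 97.1 CPM with CyCoNP probes, and 0 and 28.5 CPM with LacZ probes. CyCoNP PD was above input in both libraries. Its TMM-scaled mean went from 9.01 ± 4.42 CPM to 101 ± 15.3 CPM (SD, n = 2 each). The fitted log2 change of 3.45 (standard error 0.77) depended on which input library was kept, at 3.02 without input 1 and 4.03 without input 2. The antisense gene ARHGAP31-AS1 was read 1 and 7 times with CyCoNP probes, and its exons do not overlap those of ARHGAP31.

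ALDH2 (ENSG00000111275) is encoded on the plus strand of chromosome 12 (111766887 to 111817532). Input held 19 and 33 reads of it, the CyCoNP pull-downs 380 and 179, and the LacZ pull-downs 2 and 8. It took 26.5 and 41.7 CPM of input, 251 and 348 CPM of CyCoNP PD, and 106 and 57.1 CPM of LacZ PD. It had the most LacZ PD reads of the 6, and both LacZ PD shares were above both input shares. Scaled by TMM, it stood at 39.0 ± 15.6 CPM before and 352 ± 66.8 CPM after retrieval (SD, n = 2 each). The fitted change, 3.16 on the log2 scale (standard error 0.66), ran from 2.804 without input 1 to 3.64 without input 2. The share in CyCoNP PD 2 was 1.38 times that in CyCoNP PD 1 (interval 1.15 to 1.66). These are bulk libraries, so fewer cells with a transcript and less of it per cell cannot be told apart in input.

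**Figure D2:**
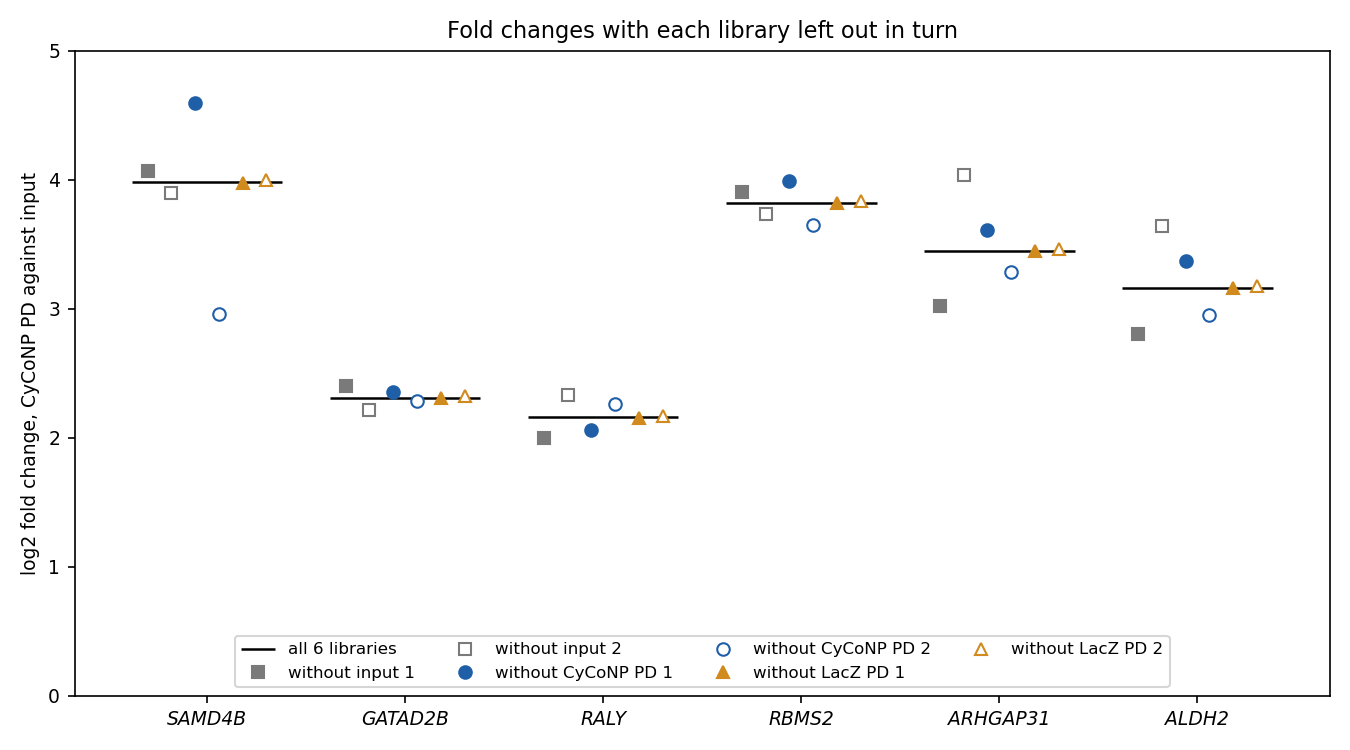
Log2 fold change in CyCoNP PD against input for each transcript, with all 6 libraries (line) and with each library left out in turn (symbols, filled for replicate 1 and open for replicate 2). SAMD4B moves most, from 2.96 to 4.60 with the CyCoNP PD libraries, and ARHGAP31 and ALDH2 move with the input libraries.

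The control asks whether beads and unrelated probes recover the same transcripts. With edgeR, 0 of the 6 were enriched and 0 depleted in LacZ PD against input, beside 0% of all genes in either direction (93 higher and 789 lower before adjustment, at p under 0.05). DESeq2 called 0.0478% of genes enriched and 0.422% depleted, and the replicate block 0.127% and 0.796%, with 0 candidates among them. DESeq2 gave no adjusted p for RALY, RBMS2 and ARHGAP31 in this contrast, so it could not have called these 3. The log2 fold changes were 1.22 for ARHGAP31 (standard error 1.01), 0.60 for ALDH2 (0.74), -0.18 for RALY (0.75), -0.75 for RBMS2 (1.28), -2.36 for GATAD2B (0.89) and -2.86 for SAMD4B (1.38). The edgeR adjusted p-values lay between 0.626 and 0.955, and before adjustment GATAD2B alone passed 0.05. SAMD4B ran from -8.00 without LacZ PD 1 to -0.90 without LacZ PD 2, and GATAD2B from -8.69 without LacZ PD 2 to -1.98. RBMS2 ran from -5.60 without LacZ PD 2 to -0.45. The lowest value of each was fitted with 0 counts left in LacZ PD, depends on the prior count and is no measure of size. Summed with its pseudogene, RBMS2 was at 0.72. The median of the 6 was -0.47, and that of all genes tested was -0.68. With library size alone as the scale, the median of all genes moved to -0.34 and RALY to 0.19. The direction of RALY also turned without input 2 (0.01), and that of ARHGAP31 without LacZ PD 2 (-5.49), which left 0 counts in LacZ PD. RALY and ALDH2 had a higher CPM in both LacZ PD libraries than in both input libraries, as had 10.6% of all genes, and GATAD2B and RBMS2 a lower one, as had 33.7%. The input libraries are shared with the contrast that chose the candidates.

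**Figure D3:**
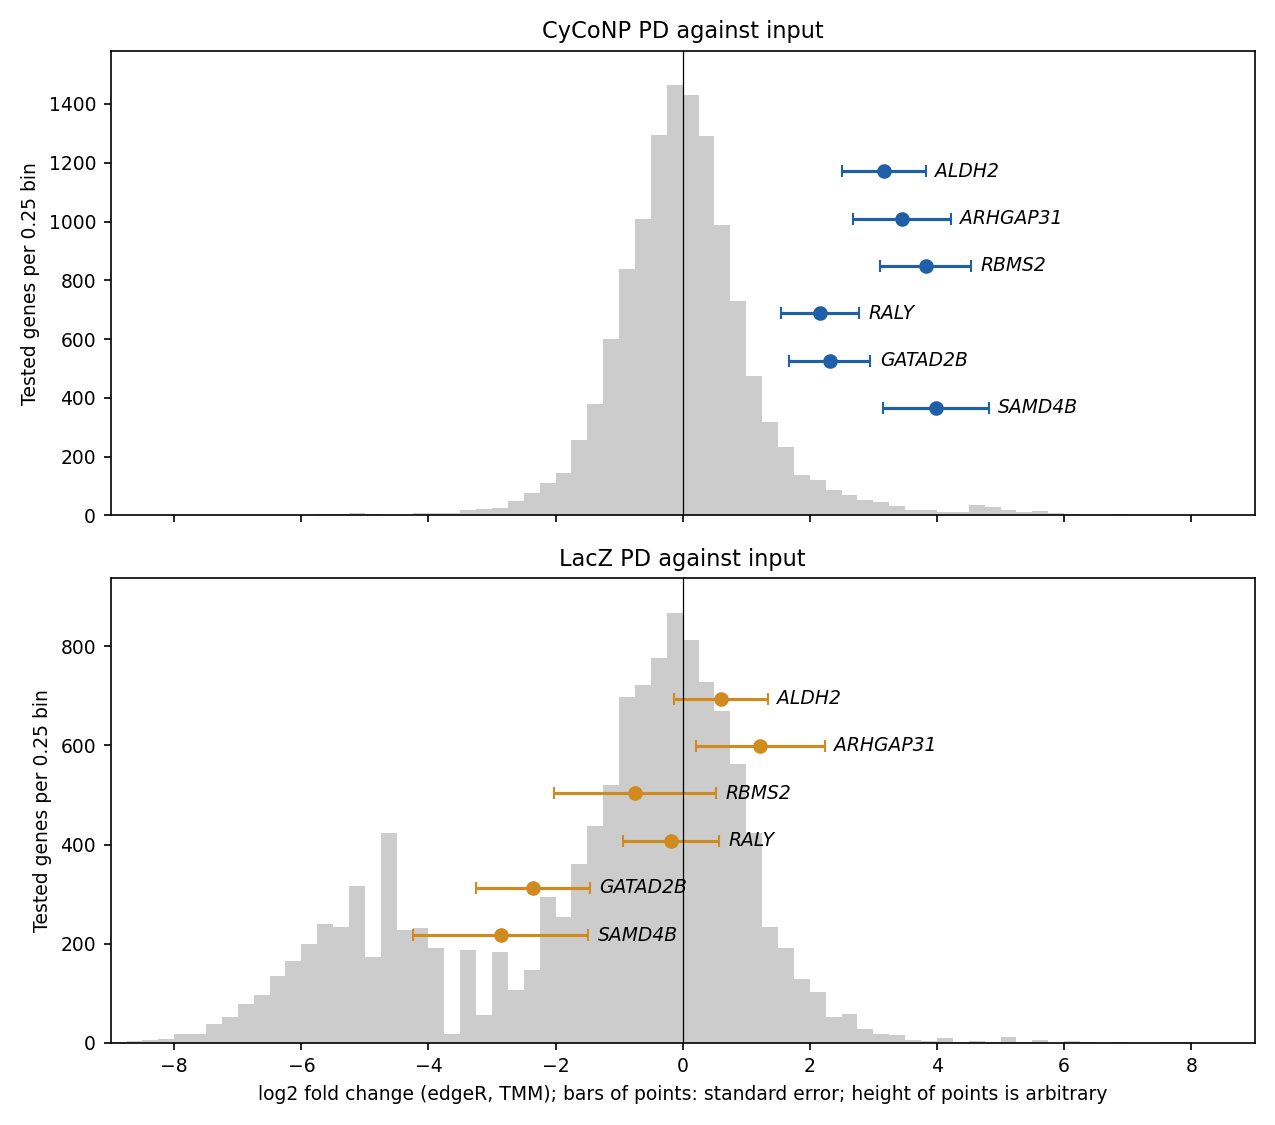
Log2 fold changes of the 6 transcripts (points, bars are standard errors) over the distribution for all 12565 genes tested, in CyCoNP PD against input (top) and LacZ PD against input (bottom). The transcripts sit in the upper tail with CyCoNP, at 2.16 to 3.98, and spread from -2.86 to 1.22 with LacZ.

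The LacZ PD counts were set beside those that other shares would give at the same depth. At its pooled CyCoNP PD share, SAMD4B would have given 80.4 counts over the 2 LacZ PD libraries, and 1 was observed (95% exact Poisson interval 0.0253 to 5.57). GATAD2B would have given 55.4 and gave 3 (0.619 to 8.77), ALDH2 43.8 and gave 10 (4.80 to 18.4), and RALY 27.8 and gave 7 (2.81 to 14.4). RBMS2 would have given 17.7 and gave 1 (0.0253 to 5.57), and ARHGAP31 12.7 and gave 4 (1.09 to 10.2). All 6 observed counts lay under these values. The CyCoNP PD shares behind them are those on which the candidates were chosen, so the distance is a description and no test. Against the input share the picture was mixed. RALY, RBMS2, ARHGAP31 and ALDH2 were within counting error of the 6.32, 1.37, 1.26 and 5.48 counts that their input share would give. SAMD4B and GATAD2B were under the 7.05 and 11.9 counts of theirs. The intervals cover counting error only, since reads amplified by PCR and not marked with molecular identifiers can stem from one molecule, and they rest mainly on LacZ PD 2.

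**Figure D4:**
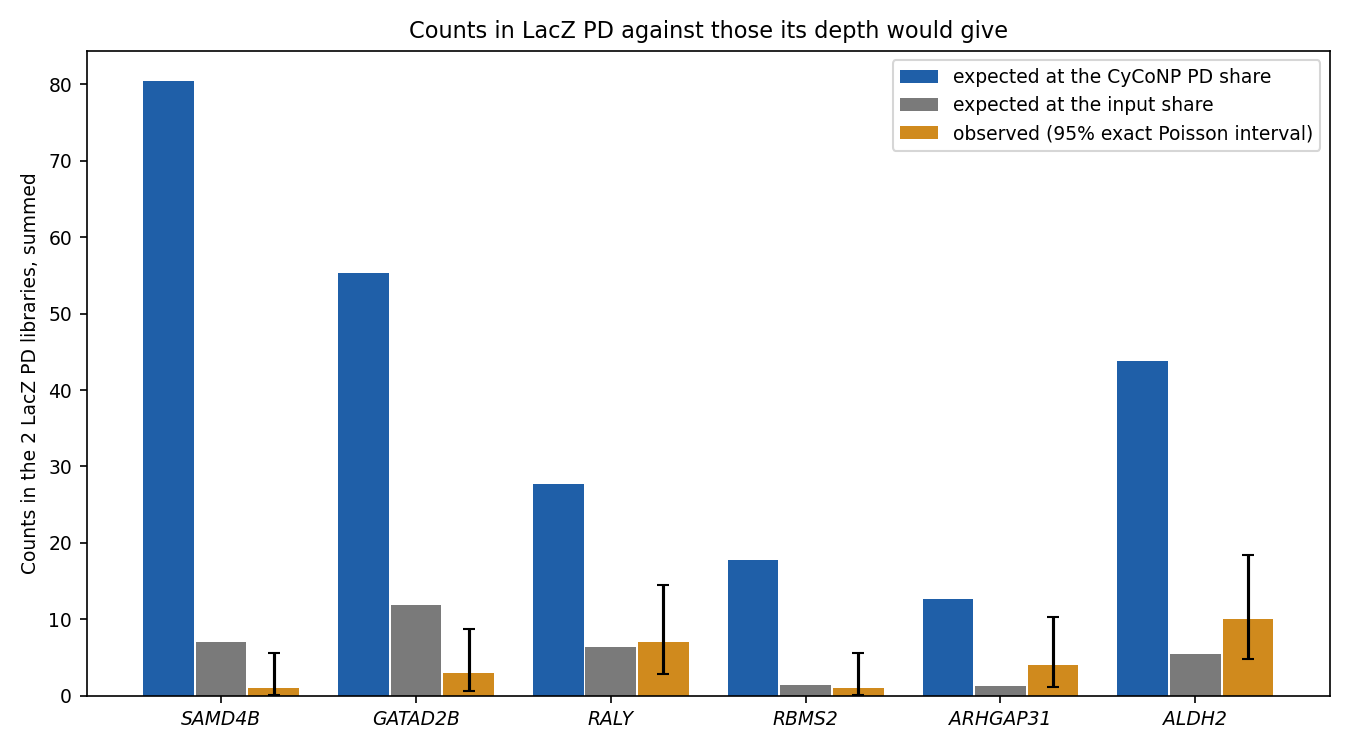
Counts in both LacZ PD libraries together, as observed (95% exact Poisson intervals) and as calculated from the shares seen in CyCoNP PD and in input. Every transcript falls below the bar for CyCoNP PD, from 1 against 80.4 for SAMD4B to 4 against 12.7 for ARHGAP31.

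As ratios of pooled shares, CyCoNP PD stood over LacZ PD by 80.4-fold for SAMD4B (interval 14.4 to 3178, on 1 LacZ PD count), 18.5-fold for GATAD2B (6.29 to 89.7, on 3) and 17.7-fold for RBMS2 (3.15 to 703, on 1). The ratios were 4.38 for ALDH2 (2.37 to 9.19), 3.97 for RALY (1.91 to 9.94) and 3.18 for ARHGAP31 (1.22 to 11.8). The first 3 had at most 3 LacZ PD counts in all and the last 3 had 4 to 10, so the intervals are wide and the order of the 6 was not resolved. That of SAMD4B was 51.3 (9.17 to 2031) with CyCoNP PD 1 alone. For every candidate the 2 CyCoNP PD shares lay above the 2 LacZ PD shares, as for 29.3% of the genes, and both ratios share the CyCoNP PD libraries that chose them. In this contrast DESeq2 called 0.287% of genes higher and 0.0159% lower, and the replicate block 0.724% and 0.0478%. SAMD4B had 0 of 140115 counts in LacZ PD 2, which allows a share of up to 21.4 CPM. GATAD2B, RBMS2 and ARHGAP31 had 0 of 18870 counts in LacZ PD 1, which allows up to 159 CPM. That limit is above the shares of RBMS2 and ARHGAP31 in CyCoNP PD, so LacZ PD 1 alone could not show a recovery of that size.

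The relatives and partners of the candidates were then examined, from lists drawn up by known function and not by how the genes moved. Of 79 listed genes 62 were tested, and edgeR called 0 as enriched and 0 as depleted when CyCoNP PD was set against input, where 0.119% and 0.00796% of all genes were called. The replicate block also called 0, as did DESeq2, which gave no adjusted p for 28 of the 62 and so could not call them. Before adjustment 1 of the 62 was higher and 0 were lower at p under 0.05, beside 387 higher and 291 lower of all 12565 genes. Their median log2 fold change was -0.12, with 28 of 62 above 0, beside -0.01 and 49.4% of all genes. In LacZ PD against input edgeR called 0 in either direction, with 0 higher and 4 lower before adjustment, and their median was -0.72.

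SAMD4A, the other mammalian Smaug protein, was read 19 and 1 times in input and 27 and 2 times with CyCoNP probes, at -0.08 on the log2 scale. The 15 tested genes of the Smaug and CCR4-NOT deadenylation list had a median of -0.08, with CNOT9 at -1.20 (adjusted p = 1.00 in edgeR) and the deadenylase CNOT6L at -2.14 (adjusted p = 1.00) having the smallest p-values. Among 13 tested subunits of NuRD the median was -0.22 and the highest value 0.46. GATAD2A, which takes the place of GATAD2B in some NuRD complexes, was at 0.06, on 42 and 53 reads of input and 83 and 37 of the CyCoNP pull-downs. RBBP7 and HDAC2, the histone-binding and deacetylase subunits with the smallest p-values in this list, were at -1.09 and -0.82 (adjusted p = 1.00 for both).

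The 9 tested RNA-binding relatives of RALY and RBMS2 had a median of -0.12. HNRNPC, a relative of RALY, was at 0.25 on 388 and 323 input reads and 715 and 310 pull-down reads. RALYL, another relative of RALY on the list, had 0 counts in every library and was not tested. RBMS1 was at -0.71 and RBMS3 at -0.17. EIF4A3, the helicase of the exon junction complex, was the highest at 1.35 (adjusted p = 0.997), and ELAVL3, a neuronal RNA-binding protein, was at -0.58 (adjusted p = 1.00). These relatives share far shorter stretches with the candidates than the pseudogene does with RBMS2. The longest identical stretch between the MANE Select transcripts was 12 bases for RALY and HNRNPC, 17 for GATAD2B and GATAD2A, 20 for RBMS2 and RBMS1, 25 for SAMD4B and SAMD4A, and 30 for ALDH2 and ALDH1B1.

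Among 16 tested genes of the Rac and Cdc42 list the median was 0.15. The highest value was 2.96 for SRGAP3 (standard error 1.65), on 1 and 0 input reads and 12 and 2 pull-down reads. PAK2, a kinase activated by both GTPases, was read 110 and 57 times in input, 275 and 372 times with CyCoNP probes, and 0 and 5 times with LacZ probes. As shares these were 153 and 72.0 CPM of input and 182 and 722 CPM of the CyCoNP pull-downs. The replicate SD in CyCoNP PD was 1.34 on the log2 scale, and CyCoNP PD 1 was little above input 1. The log2 fold change of PAK2 was 2.07 (adjusted p = 0.723 in edgeR), and it was the 1 listed gene that was higher before adjustment. Against LacZ PD, which shares the CyCoNP PD libraries, PAK2 was at 4.31 (adjusted p = 0.237 in edgeR). There it was called by DESeq2 (4.23, adjusted p = 0.0312) and by edgeR with the replicate block (4.28, adjusted p = 5.53e-05). PAK2 was the 1 listed gene that either called in that contrast. DESeq2 gave no adjusted p there for 39 of the 62 tested genes of the lists and so could not call them. SRGAP2, a GTPase-activating protein, was read 11 and 3 times in input and 3 and 0 times with CyCoNP probes, at -2.57 on the log2 scale (adjusted p = 1.00). ARHGAP32, a neural relative of ARHGAP31, had at most 3 counts in any library and was not tested. Only 9 of the 17 other aldehyde dehydrogenases were tested, with a median of -0.29. The mitochondrial ALDH1B1 was at -0.50, on 13 and 15 input reads and 22 and 5 pull-down reads, ALDH6A1 at 1.61 (adjusted p = 1.00) and ALDH7A1 at 0.66 (adjusted p = 1.00). The retinoic acid-producing enzymes ALDH1A1, ALDH1A2 and ALDH1A3 had 0 counts in every library.

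**Figure D5:**
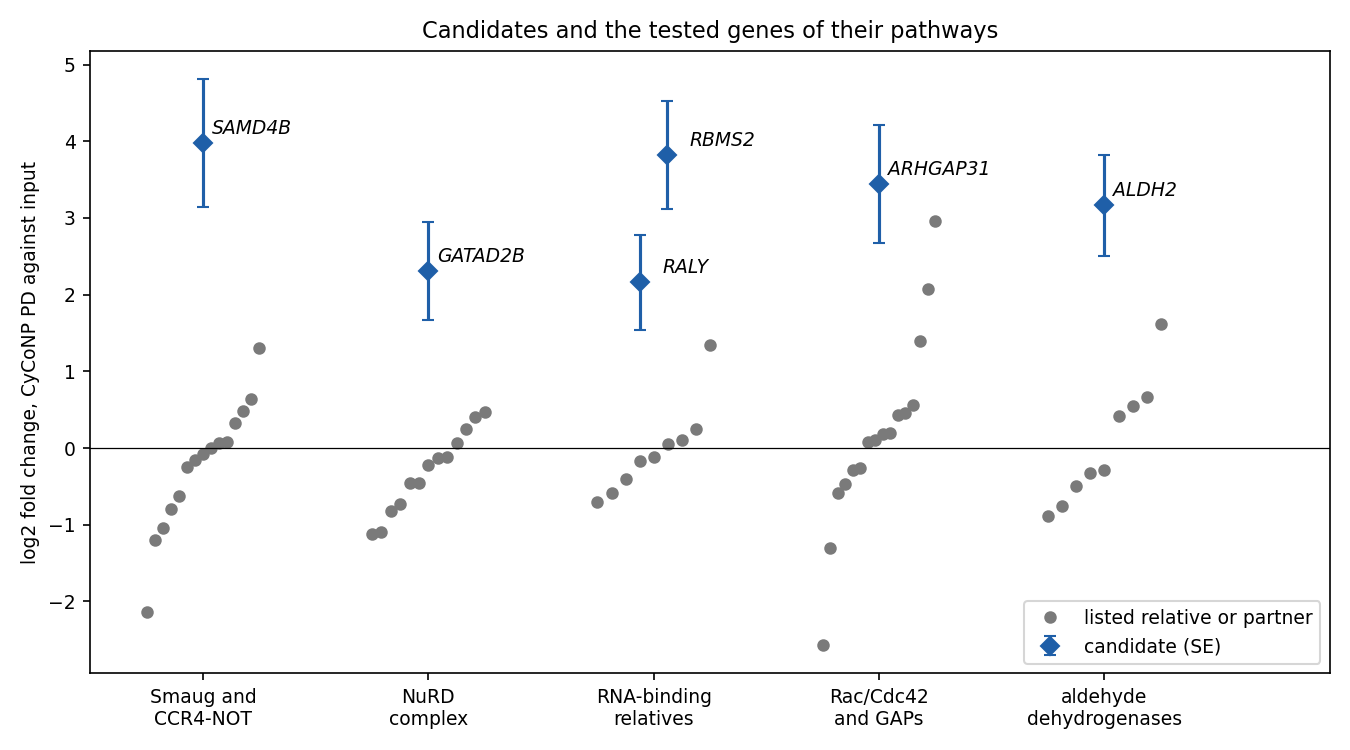
Log2 fold change in CyCoNP PD against input for each candidate (diamond, bar is the standard error) beside the 62 tested genes of the 5 functional lists (grey points). The candidates lie between 2.16 and 3.98, and the medians of the lists lie between -0.29 and 0.15. Single listed genes run from -2.57 to 2.96, into the range of the candidates.

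The profiles of the candidates over the 6 libraries were not identical. Pearson correlations of their log2 CPM ran from 0.56 between SAMD4B and ARHGAP31 to 0.97 between RALY and RBMS2, as a description over 6 libraries that share depth and group. Among 8632 genes counted 30 or more times over the libraries, those most like SAMD4B were STRBP (r = 0.99) and B4GALNT1 (r = 0.98). Those most like GATAD2B were SYF2 and ARL10 (r = 0.99 for both), and those most like RALY were TTL, the tubulin tyrosine ligase, and CDK11B (r = 0.99 for both). TTL was also the gene most like RBMS2 (r = 0.99), followed by C1orf122 (r = 0.99). ARHGAP31 was closest to CNTRL (r = 0.99) and MKI67 (r = 0.98), and ALDH2 to WDR74 (r = 0.99) and UBE2V2 (r = 0.98). Such values rest on 6 libraries, and the genes named were not alone. Of the 8632 genes, between 10 and 108 exceeded 0.95 for each candidate.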

How the data were processed

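Per the study's methods, the authors basecalled Nanopore PCR-cDNA reads with Guppy, removed short reads with NanoFilt, aligned the rest to GRCh38 with minimap2 (2.24-r1122, per the labels) and assigned them with Bambu, without new isoforms, to the genes of Ensembl 99. They deposited counts per gene for 6 libraries, whole numbers without normalization, holding 18870 to 1512148 counts. A deposited table of the same genes as CPM was not used. How Bambu divides reads between similar copies bears on RBMS2, and whether it used strand is not given in the sources used here.

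The quasi-likelihood test of edgeR 4.0.16, run in R 4.3.3 on TMM-scaled counts, was applied to every gene whose counts summed to 10 or more. All groups entered one fit, and p-values were adjusted by Benjamini-Hochberg over all genes tested. A call meant an adjusted p under 0.05 with a log2 change beyond 1 in size. Standard errors came from the F statistic. The fit was tested on simulated data. With 2 libraries a group, described by the study as biological duplicates, the precision is limited. Replicates were separate libraries (chi-square per degree of freedom 18.4, 14.3 and 4.11 over genes in input, CyCoNP PD and LacZ PD). Same-numbered libraries deviated together from their group means (r of 0.257 to 0.449), and the replicate numbers were therefore treated as pairs in the block. Of the 10 sympathoadrenal markers checked, 3 are reported here, and the 8 mesenchymal markers are all reported below. The main fit has no block, as the study's methods name none.

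Intervals of shares are 95% Wilson intervals and those of ratios are exact conditional binomial intervals on pooled counts. Both kinds cover counting error and leave out the spread between replicates. Positions and transcripts are from GENCODE v44 (GRCh38), which named 12528 of the tested genes. Probe sequences are from the study's oligonucleotide list. The genes named, the lists and the tests were chosen with earlier results of these data known. Named are the 6 candidates and CyCoNP. For each list the 2 genes with the smallest p and close relatives are named, and for each candidate the 2 genes with the highest r. RBMS3, RALYL, SRGAP3, RBMS2P1, the overlapping and antisense genes and the ALDH1A genes were named after their values were seen. As alternatives, each result was recomputed with DESeq2 1.42.0, with median-of-ratios factors in edgeR or no factors at all, without the count filter or with filterByExpr, with the 2 compared groups alone, with the replicate block, and without each library. A sum of RBMS2 and its pseudogene was added after the data were seen.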

Additional observations from a re-analysis of the deposited data

How the results depend on the processing

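The direction of all 6 candidates in CyCoNP PD against input was kept under every alternative. Their median lay between 2.91 and 3.69 when single libraries were left out, against 3.30. The candidates were chosen on this contrast, and both CyCoNP PD libraries were above both input libraries for each. The kept direction is therefore no test. Counts of called genes moved far more, and the cause was not tested. In CyCoNP PD against input, 15 genes were enriched and 1 depleted. These became 6 and 0 with library size alone, 99 and 27 without the count filter, 192 and 92 with the replicate block, 58 and 14 with DESeq2, and 0 and 0 with only the groups compared (368 higher and 327 lower before adjustment). Depleted genes numbered 0 with filterByExpr (193 before adjustment). Leaving out single libraries gave 0 to 91 enriched and 0 to 45 depleted, the 0 without either LacZ PD library. In LacZ PD against input, where 0 and 0 were called, there were 7 and 29 without the filter, 16 and 100 with the block, 6 and 53 with DESeq2, and 5 and 17 with only the groups compared, and 0 to 10 and 0 to 19 when single libraries were left out. In CyCoNP PD against LacZ PD, also 0 and 0 (595 higher and 58 lower before adjustment), 1 was enriched with library size alone, 59 and 3 were called without the filter, 91 and 6 with the block, 36 and 2 with DESeq2, and 57 and 4 with only the groups compared, and 0 to 58 and 0 to 7 when single libraries were left out. No candidate was called in LacZ PD against input under any of these, the block included, though DESeq2 gave 3 of them no adjusted p. In that contrast RALY turned to 0.19 with library size alone and ran from -0.74 to 0.01 when single libraries were left out (0.0137 without input 2), ARHGAP31 ran from -5.49 (0 counts left in LacZ PD) to 1.84, and RBMS2 turned to 0.72 when summed with its pseudogene. Such a sum moved RBMS2 in CyCoNP PD against input from 3.82 to 4.50. Depth limits LacZ PD, whose libraries together held 1 to 10 counts per candidate.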

Other observations

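Type I and III collagen transcripts had more reads in replicate 1 than in replicate 2 of each group. None of the other mesenchymal markers checked did so in every group. The 8 markers checked, chosen with earlier results of these data known, summed to 524 CPM in input 1 and 48.0 CPM in input 2. The collagens carried the sum of input 1, and in input 2 LUM had the most reads of the 8. In replicates 1 and 2, COL1A1 was read 192 and 10 times from input, 186 and 3 times with CyCoNP probes, and 4 and 1 times with LacZ probes. COL1A2 was read 131 and 2 times from input, 165 and 1 times with CyCoNP probes, and 1 and 0 times with LacZ probes. COL3A1 was read 30 and 0, 130 and 3, and 4 and 0 times in the same order. LUM went the other way, with 8 and 15, 8 and 20, and 0 and 2 reads. PDGFRB was read 8 and 8, 7 and 9, and 0 and 1 times, and DCN 4 and 3, 6 and 5, and 0 and 0 times. TWIST2 and PRRX1 had at most 4 reads in any library, all of them in replicate 1. SAMD4B was the candidate with the largest gap between the CyCoNP PD libraries, and its higher share was in replicate 2, where the collagens were low. Whether the 2 are linked was not tested.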
